A study of Mus musculus with 54 samples.

Results

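The genes described here encode the connexins, cadherins, catenins and tight junction proteins that join the cells of the ovarian follicle wall. They were the 10 rows with the symbols Gja1, Gja4, Cdh1, Cdh2, Cdh11, Cdh15, Ctnnb1, Ctnna1, Tjp1 and Cldn11, out of 25149 genes in the deposited tables, and each symbol matched 1 row. Follicles came from ovaries of CD-1 mice, an outbred stock, aged 14 to 16 days, and grew in alginate hydrogel for 8 days. They were then kept for 12 h in maturation medium with or without hCG, a hormone that acts through the LH receptor and starts ovulation in this culture. The medium of both groups also held serum, EGF and FSH. Each library came from 1 microdissected side of 1 follicle. The 4 groups were putative unruptured sides (n = 15) and putative ruptured sides (n = 14) without hCG, then unruptured sides (n = 12) and ruptured sides (n = 13) post-hCG. Where media were compared on the ruptured side, the side without hCG had not ruptured. The sample labels name the tissue as the cumulus-oocyte complex, whereas the methods state that this complex was taken out and the sides were sequenced. No label ties 2 sides to 1 follicle, so that p-values measure the spread between sides whose origin in separate follicles or mice was not stated. The sample descriptions end in codes with the letters B to D for all post-hCG libraries and F to H for all others. What the codes stand for is not stated. If they are plate wells, plate row and medium cannot be told apart.

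Gap junctions are channels built of connexins, through which neighboring cells exchange small molecules such as cGMP. In the follicle, connexin 43 (Gja1) couples granulosa cells to each other, and connexin 37 (Gja4) is known for the channels between the oocyte and the cells around it. LH is known to close and then deplete the granulosa channels before ovulation. Adherens junctions are built of cadherins, which bind their like on the next cell and are tied to actin by beta-catenin (Ctnnb1) and alpha-E-catenin (Ctnna1). Tight junctions seal the space between cells through claudins such as Cldn11, held by scaffold proteins such as ZO-1 (Tjp1).

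The upstream sequences of both connexin genes are shown because Gja1 had the highest level of all members and Gja4 was barely detected. Gja1 lies on the forward strand of chromosome 10 (GRCm38, 56377330 to 56402513) and Gja4 on the reverse strand of chromosome 4 (127311421 to 127314039). The 250 bases before the start of each gene in the RefSeq table (GRCm38.p6) are printed 5′ to 3′ on the strand of the gene. Capitals mark matches on either strand to TGACG, the half-site of the cAMP response element, or to TGANTCA, the AP-1 motif. The windows were also searched for AAGGTCA, the motif of the NR5A receptors. Neither window overlaps an exon of its own gene in GENCODE, and exons of other genes were not compared.
Gja1, chr10:56377050-56377299, +: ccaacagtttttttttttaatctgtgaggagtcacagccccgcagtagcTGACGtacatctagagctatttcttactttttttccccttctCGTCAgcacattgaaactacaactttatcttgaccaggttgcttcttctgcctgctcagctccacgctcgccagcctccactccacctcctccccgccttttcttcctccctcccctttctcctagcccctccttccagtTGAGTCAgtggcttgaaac
Gja4, chr4:127314040-127314289, -: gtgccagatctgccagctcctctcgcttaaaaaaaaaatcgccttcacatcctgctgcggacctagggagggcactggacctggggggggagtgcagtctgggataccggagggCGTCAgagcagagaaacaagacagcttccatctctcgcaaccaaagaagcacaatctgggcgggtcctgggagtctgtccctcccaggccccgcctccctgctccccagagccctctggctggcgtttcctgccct
The Gja1 window held 2 matches to TGACG, which begin 201 and 159 bases before the start, and 1 match to TGANTCA at 19 bases. The Gja4 window held 1 match to TGACG at 136 bases. Neither held AAGGTCA. Of 32851 promoters of this length in the table, 17.8% held TGACG, 6.75% held TGANTCA and 4.08% held AAGGTCA. No match overlapped another.

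Across the libraries, total counts ranged from 1497071 to 2834734 with a median of 2157092, and were lowest in putative ruptured sides (median 1744896). Counts were tested with the quasi-likelihood F-test of edgeR and are reported as log2 fold change (log2FC) with its SE and Benjamini-Hochberg FDR over all genes tested, with calls at an FDR of 0.05. Levels are given in TPM, which scales counts by transcript length and can be compared between genes. TPM and counts did not center alike: post-hCG, the median log2FC of the sides over all genes was 0.01 in edgeR and -0.21 with limma on log2(TPM + 1). Genes called higher on the ruptured side were 862 of 1833 in edgeR (971 lower) and 214 with limma (2166 lower). For hCG on the ruptured side, the median was 0.00 in edgeR and -0.14 with limma, with 2532 higher and 2597 lower against 1568 and 3005. Scaling by library totals alone put the median at -0.25 for hCG in unruptured sides and -0.33 in ruptured sides, with 1455 higher and 3844 lower, and 1376 higher and 4242 lower. Differences in TPM and in edgeR's log2FC are therefore named by scale below. The tables were not proportional for each gene. Over libraries with 5 or more counts, TPM per CPM (counts scaled to the library total) differed at most 1.41-fold to 1.5-fold for Gja1, Cdh2, Cdh15, Ctnna1 and Cldn11, but 2.29-fold for Ctnnb1, 7.69-fold for Cdh11 and 8.02-fold for Tjp1, for a reason not found. Among the granulosa markers, Inha had a mean of 1072 to 8784 TPM in the 4 groups, while Foxl2 (0.44 to 2.09 TPM), Fshr (0.78 to 3.35) and Amh (0 to 0.11) were low. Those of the oocyte were low, with a median summed TPM over 13 oocyte markers from 0.09 on the ruptured side post-hCG to 3.56 in putative unruptured sides. Among the 13, Kit had the highest median in putative unruptured sides (2.07 TPM). The paper lists Kit under smooth muscle function, so this sum is not a measure of oocyte RNA alone. Theca and stroma markers (12 genes) had median summed TPM of 776 and 43.6 in putative unruptured and putative ruptured sides, and of 361 and 8.82 in the unruptured and the ruptured sides post-hCG. In such bulk samples, fewer cells of a type and less RNA per cell cannot be told apart.

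The junction genes spanned the whole range of expression in the follicle wall. Without hCG in putative unruptured sides, Gja1 ranked number 58 of 25149 genes by mean TPM, Cdh2 520, Ctnnb1 957 and Ctnna1 1004. Median TPM ran from 1429 for Gja1 over 107.8 for Cdh2, 48.6 for Ctnnb1 and 44.8 for Ctnna1 to 4.33 for Cdh11, 3.99 for Cldn11 and 1.16 for Tjp1. The neighbors Ctnnb1 and Ctnna1 overlapped (34.0 to 63.7 and 28.7 to 56.9 TPM), as did Cdh11 and Cldn11 (0.73 to 9.38 and 1.28 to 9.34 TPM). Cdh15, Gja4 and Cdh1 had a median of 0 TPM there. Post-hCG the order changed. On the unruptured side Ctnnb1 (median 48.8 TPM) and Ctnna1 (36.2) lay above Cdh2 (33.9), and on the ruptured side the order was Ctnnb1 (56.6), Cdh2 (28.1) and Ctnna1 (24.1). The ranges of neighbors in these orders overlapped. Gja1 stayed the highest member in all 4 groups. The plot of levels by library shows every member.

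**Figure D1:**
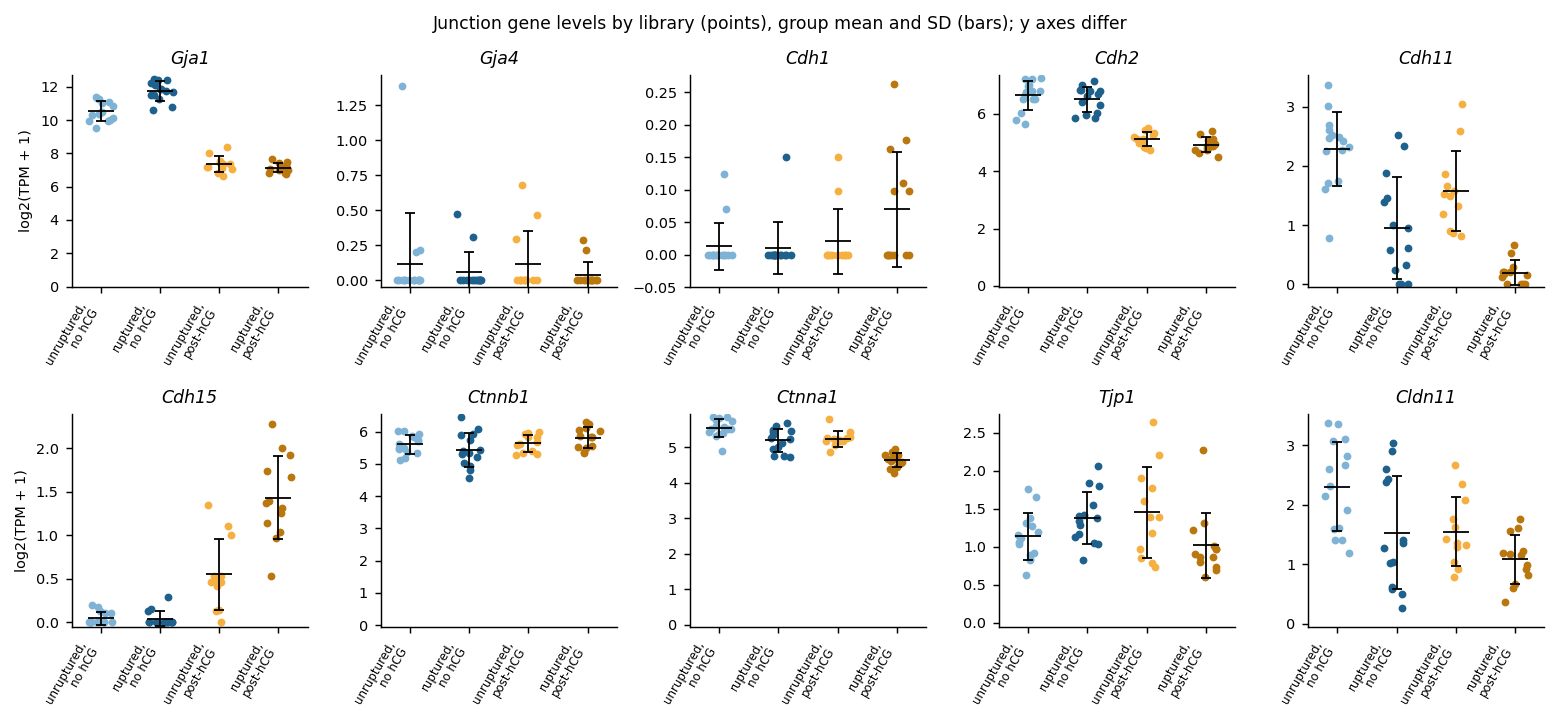
Level of each member as log2(TPM + 1) (vertical axes, which differ between panels) in each of the 54 libraries (points), with the group mean (bar) and SD (whiskers), for the putative unruptured and ruptured sides without hCG (blue) and the unruptured and ruptured sides post-hCG (orange). Gja1 and Cdh2 post-hCG lie below every library without hCG, Cdh15 is near 0 without hCG, and Cdh11 is lower on the ruptured side in both media.

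Of the 10 members, 7 passed edgeR's filter on low counts without hCG, 7 between the sides post-hCG, 7 and 5 between media on the unruptured and the ruptured side, and 8 in the interaction. Gja4 and Cdh1 passed in none. Between the sides without hCG, 4 of the 7 members were called, 2 higher and 2 lower in putative ruptured sides, where 17.8% of all genes tested were called (8.84% higher and 8.96% lower). Between the sides post-hCG, 3 of 7 were called, 1 higher and 2 lower, against 21.4% of all genes (10% higher and 11.3% lower). Cdh11 and Cdh15 among them passed the filter through the group where they were higher, as did Cdh11 without hCG. With thinned counts, 1 member was called post-hCG. With hCG, 5 of 7 were called on the unruptured side, all of them lower, against 53.1% of all genes (27.7% lower). Cldn11 among these passed the filter in the same way. With hCG on the ruptured side, all 5 that were tested were called, 1 higher and 4 lower, against 60.1% of all genes (29.7% higher and 30.4% lower). For the interaction of side and medium, 2 of 8 were called, 1 in each direction, against 8.91% of all genes (4.25% higher and 4.65% lower). The median log2FC of the tested members in the 5 comparisons was -0.28, -0.01, -1.07, -0.52 and 0.08, and that of all genes tested was -0.01, 0.01, -0.03, 0.00 and -0.01. The comparisons of sides and of media share libraries, and their values stand side by side below without a test between them.

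**Figure D2:**
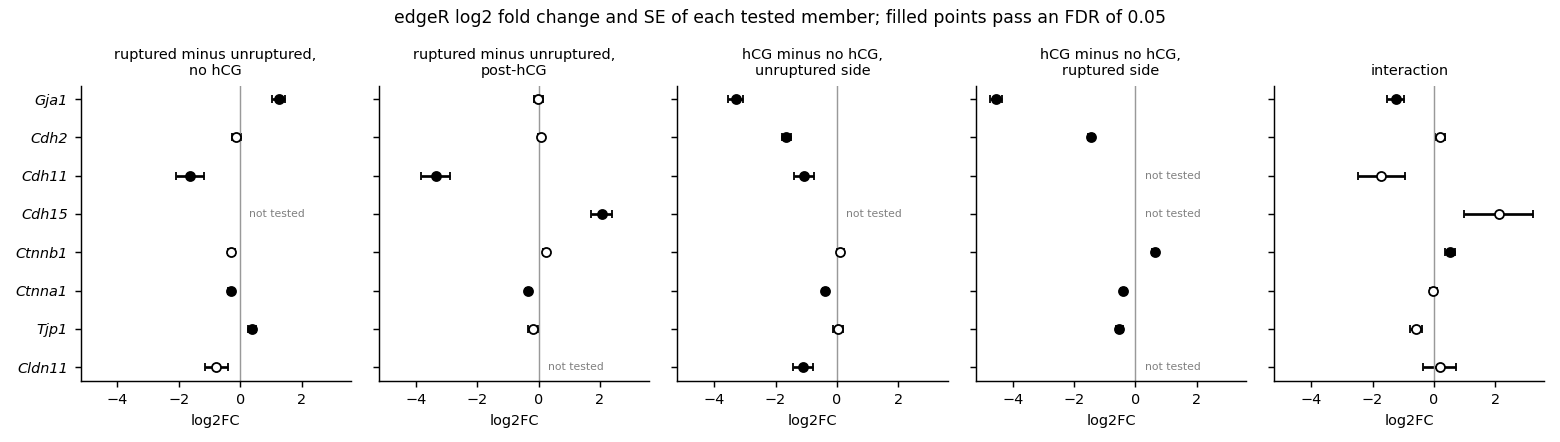
edgeR log2FC (horizontal axes) with SE of the 8 members that passed the filter in at least 1 comparison, with 1 panel for each comparison. Filled points pass an FDR of 0.05, open points do not, and "not tested" marks a member below the filter. Gja1 lies furthest from 0 in both comparisons of media (-3.31 and -4.55), and Cdh11 and Cdh15 between the sides post-hCG (-3.35 and 2.06).

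Gja1 was the most abundant member and fell with hCG on both sides of the follicle. Without hCG, Gja1 ranged from 746 to 2648 TPM (median 1429, n = 15) in putative unruptured sides. On the putative ruptured side it ranged from 1577 to 5606 TPM (median 3603, n = 14). All 14 libraries of the putative ruptured side lay above the median of the other side, and 11 of them above its highest library. Post-hCG, Gja1 ranged from 99.3 to 327.7 TPM (median 154, n = 12) on the unruptured side and from 109.8 to 203 TPM (median 134, n = 13) on the ruptured side. No library post-hCG reached the lowest library without hCG of its side.

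Gja1 was thus 2.38-fold higher in putative ruptured sides without hCG (log2FC 1.25, SE 0.22, FDR 0.000134) and ranked number 135 from the top of 9063 genes by log2FC. Post-hCG the sides differed by -0.01 (SE 0.15, FDR 0.973), within the spread between libraries. With hCG, Gja1 fell on the unruptured side to 0.101 of its level (log2FC -3.31, SE 0.24, FDR 4.12e-13). It fell on the ruptured side to 0.0427 of its level (log2FC -4.55, SE 0.20, FDR 4.22e-19) and was number 42 from the lowest log2FC among 8531 genes. The side difference differed between media, with an interaction of -1.25 (SE 0.28, FDR 0.00217), which passed the FDR under all 11 alternatives tried (-1.41 to -1.24). In log2(TPM + 1), the falls were -3.20 and -4.61, each with p = 2e-05 in a two-sided permutation test, the smallest that 100000 resamples can give (8.89e-05 adjusted over 40 tests).

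Gja1 moved with the markers of granulosa cells, the cells known to express it. Over the 54 libraries, deviations of log2(TPM + 1) from the group mean correlated with those of 10 summed granulosa markers (Pearson's r = 0.78, Spearman's rho = 0.80, permutation p = 1e-05 for both, the smallest they can give, 0.000213 adjusted over 64 relations). Without the 2 libraries farthest on the marker axis, r was 0.76. Within the groups, r was 0.91 and 0.81 in putative unruptured and putative ruptured sides and 0.42 and 0.69 in the unruptured and the ruptured sides post-hCG. Inha, the inhibin alpha subunit, makes up most of that sum (a median of 2594 TPM beside a median sum of 2701 in the putative unruptured sides). Against the summed cumulus markers (6 genes) Gja1 deviated the other way (r = -0.48, rho = -0.42, adjusted permutation p = 0.013 and 0.0443), with r = -0.39 without the 2 farthest libraries. Among the 6, Tnfaip6 had the highest mean in each group (5.31 to 16.2 TPM), while Has2 (0.04 to 1.6) and Ptx3 (0.16 to 0.67) were low. The paper reports Ptgs2 and Areg as differing between follicle sides, so this sum is not a measure of cumulus RNA alone. The summed granulosa markers themselves were lower post-hCG, with medians of 2701, 10556, 1426 and 1225 TPM in the 4 groups in the order given in the opening, and ranges of 883 to 5528, 3589 to 17570, 918 to 1978 and 783 to 1486 TPM. Single markers differed in direction. Nr5a2 had higher means post-hCG on both sides (24.9 TPM in putative ruptured and 60.5 in ruptured sides) and Fshr had means of 0.78 to 3.35 TPM in the 4 groups, whereas Cyp19a1 (aromatase) had means of 7.19, 44.3, 0.10 and 0.11. Amh had no count in either ruptured group. The part of granulosa cells in the differences of Gja1 was not tested. The gene most like Gja1 in its deviations was Esr2, which encodes estrogen receptor beta of granulosa cells (r = 0.79 over 54 libraries, among 9888 genes), followed by Ivns1abp (r = 0.78).

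**Figure D3:**
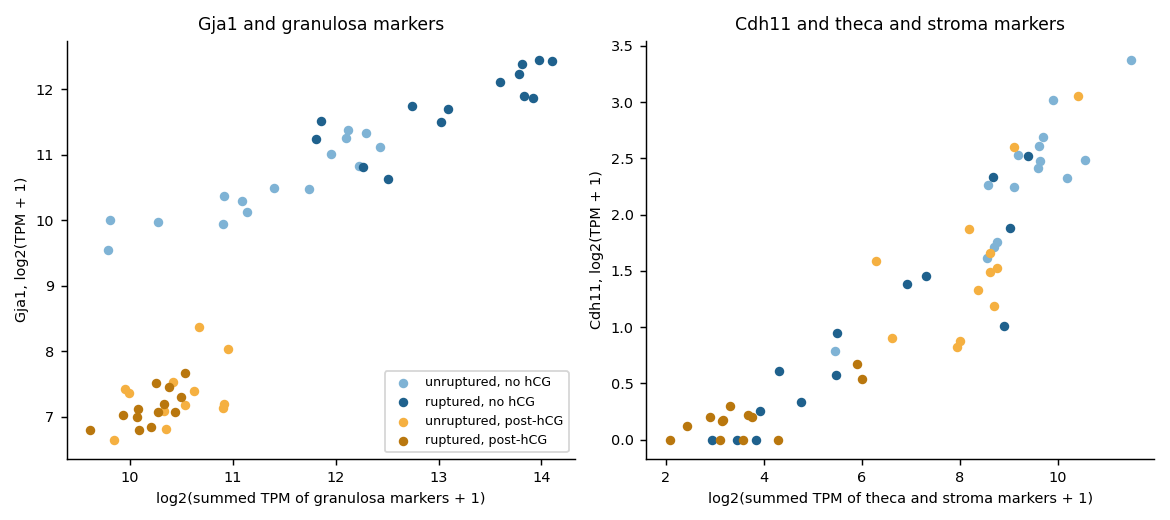
Left, Gja1 against the sum of 10 granulosa markers, and right, Cdh11 against the sum of 12 theca and stroma markers, as log2(TPM + 1) in 54 libraries (points, colored by group). Post-hCG libraries have Gja1 of at most 327.7 TPM and mostly lower granulosa sums than the others, and libraries with a higher theca and stroma sum have more Cdh11.

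Gja1 made up nearly all connexin RNA. Its mean share of the TPM summed over 20 connexins was 99.9% ± 0.06 (SD, n = 15) and 99.9% ± 0.05 (n = 14) in putative unruptured and putative ruptured sides, and 98.8% ± 0.73 (n = 12) and 99.2% ± 0.50 (n = 13) in the unruptured and the ruptured sides post-hCG. Summed connexin TPM had means of 1609, 3696, 172 and 144 in the 4 groups in that order. These shares and sums were not tested. Of 23 connexin and pannexin genes, 21 were counted in some library and 2 were tested. The other was Panx1, a pannexin known for channels that release ATP, which passed the test on the ruptured side with hCG (log2FC -0.72, SE 0.14, FDR 6.97e-05). The median log2FC of the pair was -1.79 with hCG in unruptured sides and -2.64 in ruptured sides, against -0.03 and 0.00 over all genes.

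Gja4, the connexin of the oocyte surface, was at the limit of detection. It had 12 counts in 3 of 15 libraries in putative unruptured sides, 3 in 2 of 14 in putative ruptured sides, 6 in 3 of 12 unruptured sides post-hCG and 2 in 2 of 13 ruptured sides. In libraries at 0, the limit that a count of 0 allows (3 counts) lay between 1.06 and 2.0 CPM. Of the 12 counts in putative unruptured sides, 10 came from replicate 1, which also had the highest summed oocyte markers of all 54 libraries (164 TPM). The part of oocyte material in that value was not tested. No difference between groups in Gja4 was detectable at this depth, with permutation p from 0.289 to 0.965.

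Among the cadherins, N-cadherin (Cdh2) was the main one and fell with hCG on both sides. Cdh2 ranged from 49.5 to 149.6 TPM (median 107.8) in putative unruptured sides and from 56.8 to 141.6 TPM (median 100.6) in putative ruptured sides. Post-hCG it ranged from 25.4 to 44.9 TPM (median 33.9) in unruptured sides and from 21.7 to 41.5 TPM (median 28.1) on the ruptured side. The media did not overlap on either side, and the sides overlapped in both media. With hCG, Cdh2 fell by 1.65 on the log2 scale for unruptured sides (SE 0.15, FDR 7.12e-11) and by 1.45 for ruptured sides (SE 0.10, FDR 4.42e-14). The sides differed by -0.12 (SE 0.14, FDR 0.620) without hCG and by 0.07 (SE 0.09, FDR 0.634) post-hCG, and neither passed the test. The second value was -0.08 with library totals alone and -0.19 with limma on log2(TPM + 1). The interaction of 0.19 did not pass either (SE 0.17, FDR 0.557) and was -0.05 on the latter scale.

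The gene most like Cdh2 in its deviations was another member, Ctnna1 (r = 0.70, rho = 0.66 over 54 libraries, number 1 of 9888 genes), followed by Zfp281 (r = 0.69). This likeness is a description, since all genes of a library share its depth and amplification.

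Cdh11 was the member that differed most in the same direction between the sides in both media. This cadherin is known from mesenchymal and stromal cells. It ranged from 0.73 to 9.38 TPM (median 4.33) in putative unruptured sides and from 0 to 4.75 TPM (median 0.73) in putative ruptured sides, with overlap. Post-hCG it ranged from 0.77 to 7.28 TPM (median 1.84) in unruptured sides and from 0 to 0.59 TPM (median 0.13) on the ruptured side, with no overlap in TPM. In CPM the sides overlapped, at 2.99 to 61.4 (median 13.6) and 0 to 5.29 (median 1.11), with 11 of 13 ruptured sides below every unruptured side. The lowest unruptured side, replicate 8, had 6 counts, listed at 2 TPM. Its counts summed to 453 over the 12 unruptured sides and to 44 over the 13 ruptured sides, of which 4 had none. Cdh11 was lower on the ruptured side by 1.63 on the log2 scale without hCG (log2FC -1.63, SE 0.45, FDR 0.0101). Post-hCG it was lower with a log2FC of -3.35 (SE 0.47, FDR 3.57e-06), number 14 from the lowest of 8585 genes. Its median was 93 counts in putative unruptured and 9.5 in putative ruptured sides. Post-hCG the median was 29.5 counts in unruptured and 3 in ruptured sides, beside the filter's minimum count of 10. Cdh11 thus passed the filter in both media through the group where it was higher, and its rank is no separate support. The interaction did not pass the test (-1.71, SE 0.76, FDR 0.154). When counts were thinned to the smallest library, or a mean of 20 counts was required, Cdh11 and Cdh15 were below the filter post-hCG, and both calls held under the 10 alternatives that gave a value. With hCG, Cdh11 fell on the unruptured side (log2FC -1.07, SE 0.33, FDR 0.00639). On the ruptured side it was below the filter of edgeR, and in log2(TPM + 1) it fell by 0.75 (permutation p = 0.00294, 0.00905 adjusted over 40 tests).

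Libraries with more Cdh11 also had more RNA of theca and stroma markers. Deviations from the group means correlated with r = 0.82 and rho = 0.79 over 54 libraries (permutation p = 1e-05 for both, the smallest they can give, 0.000213 adjusted over 64 relations), and with r = 0.78 without the 2 farthest libraries. Within the groups r was 0.89, 0.92, 0.66 and 0.78 in the order given in the opening. With 6 smooth muscle markers r was 0.68 and rho 0.60 (the same adjusted p), and with the granulosa sum r was -0.52 and rho -0.39 (adjusted permutation p = 0.00499 and 0.105). Neither relation held alike in all groups. In the same order, r was 0.77, 0.89, 0.33 and -0.07 with smooth muscle, and -0.56, -0.76, 0.05 and 0.04 with the granulosa sum. With 6 surface epithelium markers r was 0.46 but rho 0.20 (0.00499 and 0.663). The theca and stroma sum ranged from 42.8 to 2902, 6.66 to 672, 77.3 to 1370 and 3.2 to 63.2 TPM in the 4 groups, and its marker Cyp17a1, of androgen synthesis in theca cells, had no count in ruptured sides post-hCG. Of the 14 putative ruptured sides, replicate 1 had the highest Cdh11 (4.75 TPM) and also the highest theca and stroma sum (672 TPM). The 3 without a count of Cdh11 had sums of 6.66, 9.92 and 13.3 TPM. The part of theca and stroma cells in the side difference of Cdh11 was not tested. The genes most like Cdh11 were Col1a2 (r = 0.90) and Col1a1 (r = 0.85), the chains of type I collagen, which are also in the theca and stroma list.

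Cdh15 (M-cadherin, known from muscle cells; chromosome 8, 122847966 to 122867397 in GRCm38) was close to absent without hCG and present post-hCG. Counts summed to 6 in 5 of 15 libraries in putative unruptured sides and to 4 in 3 of 14 in putative ruptured sides. Post-hCG they summed to 60 in 11 of 12 unruptured sides and to 266 in 13 of 13 ruptured sides. In TPM, the ranges post-hCG were 0 to 1.54 (median 0.39) and 0.44 to 3.85 (median 1.59), and without hCG no library exceeded 0.22. On the ruptured side the media did not overlap, and on the unruptured side they did.

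In log2(TPM + 1), Cdh15 rose with hCG by 0.50 on the unruptured side and by 1.39 on the ruptured side (permutation p = 2e-05 for both, 8.89e-05 adjusted over 40 tests). Both comparisons were below the filter of edgeR. With no filter, edgeR gave a log2FC of 3.59 (SE 0.56, FDR 2.15e-06) and 5.63 (SE 0.41, FDR 1.37e-14), and DESeq2 gave 3.97 and 5.94, values that depend on how each tool treats the near-zero group. Post-hCG, Cdh15 was 4.18-fold higher on the ruptured side (log2FC 2.06, SE 0.34, FDR 3.67e-05), number 3 from the top of 8585 genes by log2FC. Its median was 4 counts in unruptured and 18 in ruptured sides, beside the filter's minimum count of 10. It thus passed the filter through the group where it was higher, and its rank is no separate support. All 13 ruptured sides lay above the median of the unruptured side. The interaction was 2.10 (SE 1.12, FDR 0.256) and did not pass, and it rests on the low counts without hCG. Limma without a filter put it at 0.89 with an FDR of 0.00076. The summed markers of smooth muscle had a median of 2.38 TPM on the ruptured side and 4.54 on the unruptured side post-hCG. Their deviations correlated with those of Cdh15 with r = -0.09 and rho = -0.05 (adjusted permutation p = 0.736 and 0.919). A list of skeletal muscle markers was not compared, and the cell source of Cdh15 was not tested. The gene most like Cdh15 in its deviations was Nell1 (r = 0.67), followed by AC101869.3 (r = 0.57).

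Cdh1 (E-cadherin, the cadherin of most epithelia) was detected in few libraries. It had 2 counts in 2 of 15, 1 in 1 of 14, 2 in 2 of 12 and 10 in 6 of 13 libraries, in the order given in the opening. In libraries at 0, the limit of 3 counts lay between 1.06 and 2.0 CPM. By permutation no difference was called, with the smallest p of 0.0363 for hCG on the ruptured side (0.0691 adjusted over 40 tests). Cdh1 was below the filter of edgeR in each comparison. With no filter, edgeR called it higher with hCG on the ruptured side (log2FC 2.22, SE 0.68, FDR 0.01). DESeq2 (1.96, FDR 0.170) and limma with no filter (FDR 0.105) did not. These values rest on 1 and 10 counts.

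The cadherin make-up of the wall followed these changes. Cdh2 made up 89.0% ± 3.51 (SD, n = 15) and 92.1% ± 4.0 (n = 14) of the TPM summed over 23 cadherins in putative unruptured and putative ruptured sides. Post-hCG its share was 79.5% ± 6.05 (n = 12) and 86.2% ± 2.21 (n = 13). Cdh11 held 4.36% ± 3.10, 1.46% ± 1.86, 5.22% ± 3.72 and 0.47% ± 0.51 in the 4 groups in the same order. Cdh15 held 0.03% in both groups without hCG, and 1.27% ± 1.11 and 5.21% ± 2.15 post-hCG, so that on the ruptured side it stood next after Cdh2. Summed cadherin TPM had a mean of 116 ± 33.4, 101.5 ± 27.4, 43.0 ± 7.84 and 34.5 ± 6.17 (SD). These shares were not tested.

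**Figure D4:**
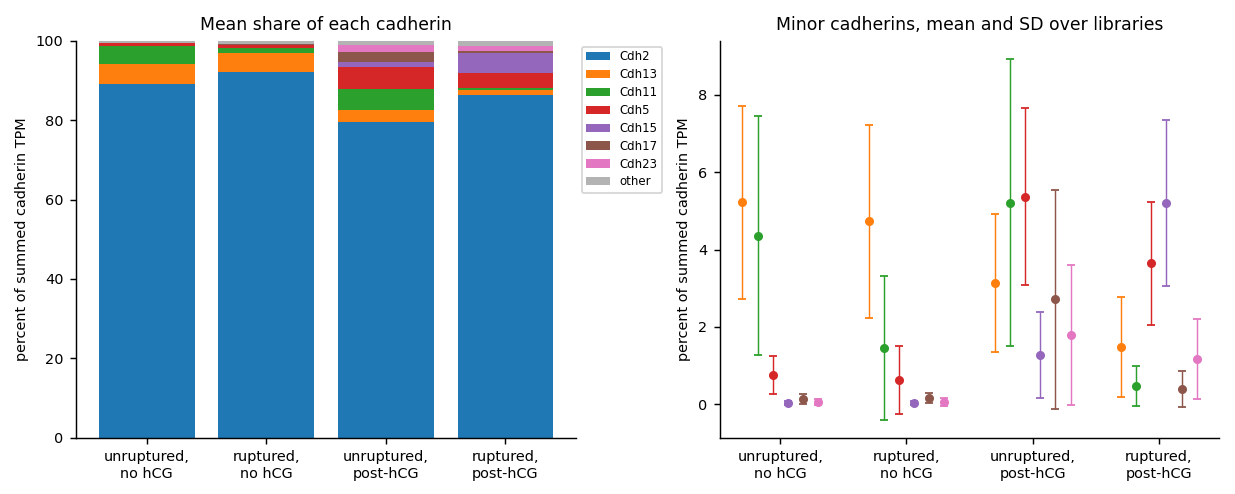
Share of each cadherin in the TPM summed over 23 cadherins (percent, vertical axes) in the 4 groups. Left, group means stacked to 100, with all but 7 cadherins as other, and right, mean and SD over libraries of the 6 minor cadherins shown at left. Cdh15 stands at 0.03% in both groups without hCG and at 5.21% on the ruptured side post-hCG, while Cdh11 is below 2% on both ruptured sides.

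Among all 23 cadherin genes, 21 had a count. In addition to Cdh2 and Cdh11, Cdh13 (T-cadherin, a membrane-anchored cadherin without a cytoplasmic tail) fell with hCG by 3.05 on the log2 scale on the unruptured side (SE 0.37, FDR 2.58e-08) and by 2.63 on the ruptured side (SE 0.31, FDR 7.48e-09). Its median TPM was 6.06, 4.71, 1.28 and 0.39 in the 4 groups. Its median counts were 44, 29.5, 4 and 3, beside the filter's minimum count of 10. Cdh13 thus passed the filter through the groups where it was higher. Cdh5 (VE-cadherin, of endothelial cells) rose on the unruptured side (log2FC 1.40, SE 0.33, FDR 0.000604), from a median of 0.72 to 2.42 TPM. The endothelial markers, of which Cdh5 is 1 of 6, had median sums of 8.48 and 10.5 TPM there. With hCG on the unruptured side, 1 of 4 tested cadherins rose and 3 fell (median log2FC -1.36). On the ruptured side both that were tested, Cdh2 and Cdh13, fell (median -2.04). Over all genes, 53.1% and 60.1% were called. Cdh5, Cdh11 and Cdh15 were below the filter on the ruptured side with hCG. With no filter, edgeR gave -2.77 for Cdh11 and 5.63 for Cdh15 there. Cdh5 had a median of 0.37 TPM in putative ruptured and 1.14 in ruptured sides.

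Both catenin members stayed within 0.64 of 0 in log2FC in each comparison. Ctnnb1 (beta-catenin, which also acts in Wnt signaling; chromosome 9, 120929216 to 120960507) ranged from 34.0 to 63.7 TPM (median 48.6) in putative unruptured sides and from 22.9 to 87.2 TPM (median 40.4) in putative ruptured sides. Post-hCG it ranged from 38.2 to 62.3 TPM (median 48.8) and from 39.2 to 78.2 TPM (median 56.6). The groups overlapped in each comparison. Ctnnb1 rose with hCG on the ruptured side (log2FC 0.64, SE 0.11, FDR 8.74e-06), and on the unruptured side its log2FC of 0.11 (SE 0.11, FDR 0.385) did not pass. The interaction was 0.52 (SE 0.15, FDR 0.0227). In TPM the rise on the ruptured side did not pass, with limma (0.37, FDR 0.0648) or by permutation (p = 0.0409, 0.0744 adjusted over 40 tests), and neither did the interaction with limma (FDR 0.313). On counts, the interaction did not pass in edgeR with library totals alone (FDR 0.0971). Between the sides, log2FC was -0.28 (FDR 0.0970) without hCG and 0.24 (FDR 0.0646) post-hCG, and neither passed. Without replicate 4 of the putative ruptured side the first reached an FDR of 0.0396, and the second reached 0.0187 without replicate 6 of the ruptured sides post-hCG and 0.0334 without replicate 12 of the unruptured sides.

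Ctnna1 (alpha-E-catenin, which links the cadherin complex to actin) was lower on the ruptured side in both media and lower with hCG on both sides. Its ranges were 28.7 to 56.9 TPM (median 44.8), 25.2 to 50.5 (median 36.8), 27.9 to 54.5 (median 36.2) and 18.3 to 29.6 (median 24.1) in the 4 groups. Of the 13 ruptured sides post-hCG, 12 lay below every unruptured side in TPM and 10 in CPM. Between the sides the log2FC was -0.31 without hCG (SE 0.09, FDR 0.0113) and -0.33 post-hCG (SE 0.08, FDR 0.00219), and the first was lost with limma and no filter (-0.34, FDR 0.0627). With hCG it was -0.38 on the unruptured side (SE 0.09, FDR 0.000475) and -0.39 on the ruptured side (SE 0.08, FDR 0.000128). The interaction was -0.02 (SE 0.11, FDR 0.949). Post-hCG the sides differed by -0.60 in log2(TPM + 1), where the median of all genes was -0.21. The genes most like Ctnna1 were Tbl1x (r = 0.81) and Uba1 (r = 0.79), and those most like Ctnnb1 were Slc30a5 (r = 0.68) and Selo (r = 0.67).

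The tight junction members were low. Tjp1 (ZO-1, the scaffold that binds claudins and connexins; chromosome 7, 65296165 to 65527781) had 9 to 42 counts in each library. Its TPM ranged from 0.55 to 2.38 (median 1.16) and from 0.78 to 3.17 (median 1.57) in putative unruptured and putative ruptured sides, and from 0.67 to 5.27 (median 1.62) and from 0.52 to 3.82 (median 0.88) post-hCG. All groups overlapped. The highest value, 5.27 TPM in replicate 7 of the unruptured sides, stood for 22 counts, and medians in CPM were 12.8, 16.7, 12.1 and 9.13 in the 4 groups. Without hCG, Tjp1 was higher in putative ruptured sides (log2FC 0.39, SE 0.13, FDR 0.0326), a call that was lost under 6 of 12 alternatives, with an FDR of 0.0767 without replicate 14 of the putative ruptured side, 0.0604 without replicate 9 of that side and 0.0559 without replicate 4 of the putative unruptured side. With hCG it fell on the ruptured side (log2FC -0.52, SE 0.12, FDR 0.000445, and 0.0528 with limma on log2(TPM + 1)). On the unruptured side its log2FC was 0.05 (SE 0.16, FDR 0.830), and -0.16 with library totals alone. The interaction was -0.58 (SE 0.20, FDR 0.0596, and 0.0466 with library totals alone). Cask (r = 0.57, but rho = 0.38), a scaffold protein of the same MAGUK family, was the gene most like Tjp1 in TPM. Dzip1 followed (r = 0.49, rho = 0.41).

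Cldn11 (chromosome 3, 31149920 to 31164324), a claudin best known from the Sertoli cell barrier of the testis and from myelin, ranged from 1.28 to 9.34 TPM (median 3.99) in putative unruptured sides and from 0.20 to 7.22 TPM (median 1.48) in putative ruptured sides. Post-hCG it ranged from 0.73 to 5.38 TPM (median 1.61) in unruptured sides and from 0.29 to 2.38 TPM (median 1.23) on the ruptured side. All groups overlapped. It fell with hCG on the unruptured side (log2FC -1.11, SE 0.31, FDR 0.00362). Its median there was 24 counts without hCG and 8 post-hCG, beside the filter's minimum count of 10. Cldn11 thus passed the filter through the group where it was higher. Between the sides without hCG the log2FC was -0.78 (SE 0.37, FDR 0.152), and without replicate 10 of the putative ruptured side, which had the highest level of that group, it was -1.03 with an FDR of 0.0482. In log2(TPM + 1) that difference was -0.77 (permutation p = 0.0229, 0.0483 adjusted over 40 tests). The gene was below the filter on the ruptured side with hCG and between the sides post-hCG. For hCG on the ruptured side, edgeR gave -0.92 (FDR 0.0440) with all 4 groups in one fit, -0.91 (FDR 0.0671) with no filter, and a permutation test in log2(TPM + 1) gave -0.45 (p = 0.125, 0.179 adjusted over 40 tests). Between the sides post-hCG these were -0.59 (FDR 0.357), -0.59 (FDR 0.229) and -0.47 (p = 0.0257, 0.0515 adjusted). The genes most like Cldn11 were Dync1i1 and Gm2a (r = 0.73 for both).

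Other genes of the junctions moved in both directions, and were called about as often as all genes. Over the 6 junction lists, members included, 23.7% and 24.3% of tested genes were called between the sides without and post-hCG, and 56.4% and 59.4% with hCG on the unruptured and the ruptured side. Of 20 catenins and adherens junction adaptors in the tables, 15 were tested. With hCG, 4 rose and 4 fell on the unruptured side (median log2FC -0.22), which is 53.3% called beside 53.1% of all genes. On the ruptured side 5 rose and 5 fell (median 0.08), which is 66.7% beside 60.1%. Among them nectin-2 (Pvrl2), an adhesion molecule of adherens junctions, rose on both sides (log2FC 1.84, SE 0.16, FDR 2.67e-11, and 2.07, SE 0.12, FDR 3.76e-16), from a median of 19.3 to 80.2 TPM on the unruptured side and from 11.8 to 46.1 on the ruptured side. Its relative nectin-3 (Pvrl3) fell on both sides (log2FC -1.32, FDR 1.55e-07, and -1.47, FDR 3.36e-08), as did afadin (Mllt4), which ties nectins to actin (log2FC -1.04, FDR 1.4e-05, and -0.97, FDR 2.15e-05). Vinculin (Vcl), which binds alpha-catenin under tension, rose on both sides (log2FC 0.62, SE 0.12, FDR 7.31e-05, and 0.79, SE 0.14, FDR 9.34e-06). Actn1, an actin cross-linker, was called higher on the unruptured side (log2FC 0.51, FDR 0.0450) and on the ruptured side (0.80, FDR 0.00492), and 4 of 11 alternatives lost the second call. Its median was 9.5 counts in putative ruptured and 18 in ruptured sides, beside the filter's minimum count of 10. Jup (gamma-catenin) fell on both sides (log2FC -0.89, FDR 0.000262, and -0.66, FDR 0.000474). Vcl on the ruptured side, Actn1 on the unruptured side and Jup were added after their values were seen. Between the sides 3 of 15 (20%) were lower in each medium and none higher, where 17.8% of all genes without hCG and 21.4% post-hCG were called in either direction. They included Pvrl2 (log2FC -0.70, FDR 0.00351, without hCG and -0.47, FDR 0.000897, post-hCG) and Lima1 (EPLIN, an actin binding partner of alpha-catenin; -0.62, FDR 0.00226, and -0.60, FDR 0.00098). Both calls without hCG were lost with limma and no filter (FDR 0.0752 and 0.0722).

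Of 23 genes of the tight junction scaffold list in the tables, 14 were tested with hCG on the unruptured side, where 1 rose and 6 fell, and 10 on the ruptured side, where 2 rose and 2 fell. These are 50% and 40% called, beside 53.1% and 60.1% of all genes. JAM-A (F11r), an adhesion molecule of tight junctions, rose on both sides (log2FC 0.93, SE 0.14, FDR 2.24e-06, and 0.66, SE 0.13, FDR 4.69e-05). Magi2 (log2FC -1.62, FDR 5.05e-06) and Pard3b (-1.26, FDR 0.00062, and 0.0521 with limma and no filter), scaffold and polarity proteins, fell on the unruptured side. Their medians there were 22 and 12 counts without hCG and 5.5 and 3 post-hCG, beside the filter's minimum count of 10. Both thus passed the filter through the group where they were higher. Pard6g, a polarity protein, fell on both sides (log2FC -0.67, FDR 7.76e-05, on the unruptured side and -0.58, FDR 0.00032, on the ruptured side). Its value on the unruptured side was added after it was seen. Prkci, the atypical protein kinase C that works with the PAR proteins, was called higher on the ruptured side (log2FC 0.58, FDR 0.00421), and 4 of 12 alternatives lost the call. Between the sides, Jam2 (JAM-B) was higher on the ruptured side in both media (log2FC 0.90, SE 0.16, FDR 0.000134, and 0.77, SE 0.19, FDR 0.00384), although limma on log2(TPM + 1) put the second at an FDR of 0.183. Cingulin (Cgn) was lower in putative ruptured sides (log2FC -1.10, SE 0.24, FDR 0.00115), and post-hCG F11r (-0.46, FDR 0.00288) and Mpdz (-0.93, FDR 0.0077, and 0.0642 with limma and no filter) were lower on the ruptured side. Cgn had medians of 17 and 7 counts in putative unruptured and putative ruptured sides. Mpdz had medians of 13.5 and 8 counts in unruptured and ruptured sides post-hCG. Cgn and Mpdz thus passed the filter through the group where they were higher.

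Claudins and desmosomal genes were mostly below the filter. Of 27 claudins in the tables, 23 had a count and at most 3 were tested in a pairwise comparison. Cldn18 had no count in the 15 putative unruptured sides and 6 counts in 4 of the 14 putative ruptured sides, and post-hCG it had 163 counts in 12 of 12 unruptured sides and 281 in 13 of 13 ruptured sides. It was called higher on the ruptured side post-hCG (log2FC 0.74, SE 0.26, FDR 0.0374), and 5 of 11 alternatives lost the call. Cldn12 was called lower in putative ruptured sides (log2FC -0.39, FDR 0.0430), and 6 of 12 alternatives lost it. Of 15 desmosomal genes, 13 had a count and 2 were tested with hCG on each side. Pkp2, a plaque protein of desmosomes, was called higher on both (log2FC 0.46, FDR 0.0166, and 0.45, FDR 0.0132), and both calls were lost with library totals alone (FDR 0.177 and 0.457). The call on the ruptured side was also lost with the 3 fits of limma (FDR 0.179 to 0.250).

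**Figure D5:**
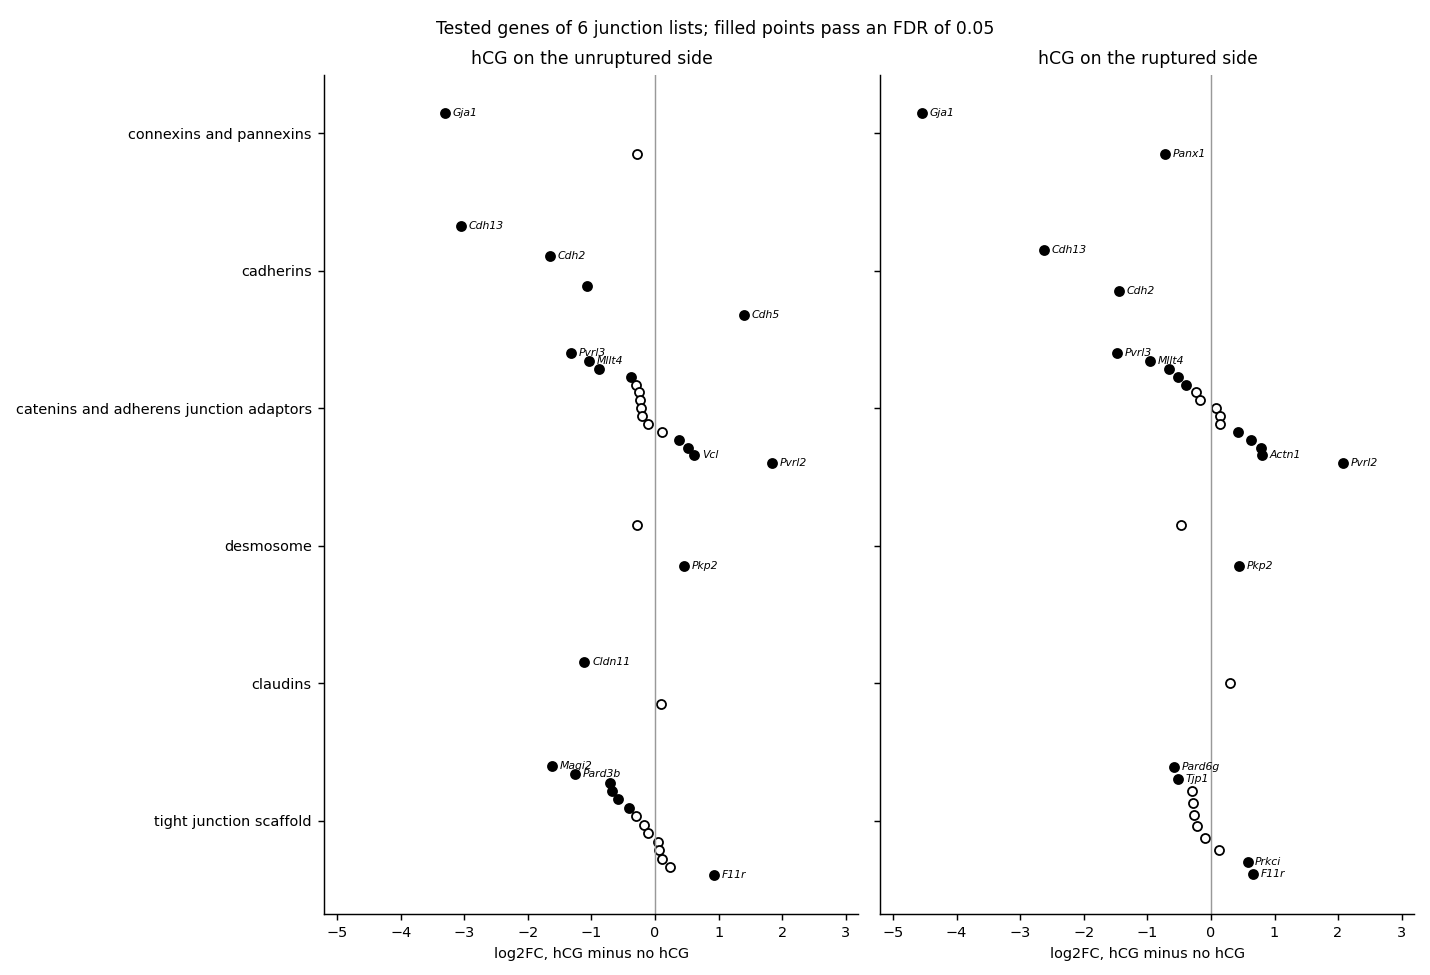
edgeR log2FC of hCG against no hCG (horizontal axes) for each tested gene (points) of the 6 junction lists (vertical axis), on the unruptured side (left) and the ruptured side (right). Filled points pass an FDR of 0.05, and names mark the 2 furthest called genes in each direction of each list. Gja1 and Cdh13 lie furthest to the left on both sides and Pvrl2 furthest to the right.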

How the data were processed

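Per the labels and the study's methods, RNA of single follicle sides was amplified with Smart-Seq2, aligned with HISAT2 to GRCm38, and adjusted by the authors for batch with ComBat-seq. Whether the deposited counts precede that adjustment, the counting program, the annotation and the batches are not given in the sources used here. The authors deposited estimated counts (72.16% of non-zero values whole) and TPM for 25149 coding genes, of which 21985 had a count in 54 libraries. TPM deposited for these genes summed to between 585982 and 678417 in a library, so they hold part of each library's total. Totals of 1497071 to 2834734 counts limit precision for low genes, and limits from counts cover counting error only.

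Counts were rounded and tested in edgeR 4.0.16 (R 4.3.3) with filterByExpr (minimum count 10, minimum total 15), TMM factors and the quasi-likelihood F-test, fitted over all genes of the 2 groups compared, or of all 4 groups for the interaction, with Benjamini-Hochberg FDR. The fits of edgeR, DESeq2 and limma were tried on simulated counts, and the other steps were not. Levels were compared on log2(TPM + 1) with two-sided permutation tests (100000 resamples, scipy 1.17.1) adjusted over 40 tests. Relations to marker sums used deviations from group means. DESeq2 1.42.0, limma 3.58.1 on TPM, other filters, scalings and pseudocounts, thinned counts and leaving out each library were alternatives. The limma fits left out genes whose mean TPM was under 1 unless stated. Groups came from the sample labels. The members and lists were chosen with earlier results of these data known. Beyond the members, the genes named in each junction list were up to 2 with the largest log2FC in each direction that passed the FDR, averaged 1 CPM or more and were counted in 50% or more of the group where they were higher. Promoter windows came from RefSeq (GRCm38.p6), where 6 of the 10 members had an entry, and gene positions from GENCODE (GRCm38).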

Additional observations from a re-analysis of the deposited data

Results flagged for a closer look

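By the interaction term of edgeR over all 54 libraries, the difference between the sides changed with the medium in 4 of 45 junction genes tested (8.89%), a share close to the 8.91% of all genes. For Gja1 the interaction was -1.25 (SE 0.28, FDR 0.00217), from a side difference of 1.25 without hCG to -0.01 post-hCG, and the call held under 11 of 11 alternatives. For Ctnnb1 it was 0.52 (SE 0.15, FDR 0.0227), from -0.28 to 0.24, and the call was lost under 4 of 11 alternatives. For cingulin (Cgn) it was 1.17 (SE 0.32, FDR 0.0122), with a side difference of -1.10 (FDR 0.00115) without hCG, while post-hCG the gene was below the filter. The call was lost under 1 of 8 alternatives. For Prkci it was 0.86 (SE 0.25, FDR 0.0203), from -0.48 (FDR 0.0754) to 0.38 (FDR 0.0788), and the call was lost under 6 of 11 alternatives, the replicate block (0.76, FDR 0.0775) included. The part of cell make-up in these differences was not tested.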

How the results depend on the processing

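Over the 16 counts of calls, 157 of 178 values under alternatives were within 1.5 times the reported count. Genes called between the sides without hCG fell from 1613 to 1054, 1051 and 1034 with limma on log2(TPM + 1), log2(TPM + 0.1) and log2(TPM + 1) with no filter, and members from 4 to 2 with the last. Post-hCG, members called fell from 3 to 1 and junction genes from 9 to 5 both with a mean of at least 20 counts required and with thinned counts, where Cdh11 and Cdh15 were below the filter. With hCG on the unruptured side, 22 junction genes became 34 with DESeq2 and 37 with no filter. On the ruptured side 19 became 36 with DESeq2, 39 with no filter, 32 with all 4 groups in one fit and 30 with limma and no filter, and the 5 members became 8 with no filter, 8 with all 4 groups in one fit and 3 with limma. For the interaction, limma with either pseudocount called 1 member in place of 2 and 2 junction genes in place of 4. Fits with no filter tested more genes, and the causes of the other changes were not tested. Of 391 values of single members, 359 kept their direction and side of the threshold, 16 lost the call, 2 gained it and 14 turned direction, none of which had been called. Those were the side difference of Gja1 post-hCG (0.0017 with thinned counts, 0.092 with the replicate block and 0.016 in the same libraries without it), Cdh2 post-hCG (-0.075 with library totals, -0.19 with limma with and without a filter and -0.20 with a pseudocount of 0.1), Ctnnb1 (-0.099 with library totals) and Tjp1 (-0.16 with library totals, -0.068 with the block and -0.048 in the same libraries without it) with hCG on the unruptured side, and the interaction of Cdh2 (-0.055 with limma with and without a filter, -0.059 with a pseudocount of 0.1). The difference of Gja4 in level for hCG on the unruptured side was 0.11 with that pseudocount. Leaving out 1 library gave -0.070 to 0.097 for Gja1 post-hCG and -0.0061 to 0.14 for Tjp1 with hCG on the unruptured side, and 3 to 5, 2 to 4, 5 and 5 members called in the 4 comparisons of groups. Same-numbered libraries did not deviate together (r over 0.1 in 1 of 14, 2 of 12, 1 of 12 and 1 of 13 numbers), and 2, 2, 2 and 1 of the numbers correlated best with their own, so the number was not taken as a pairing. With the replicate block, 3, 3, 5, 5 and 2 members were called, and 1405, 1733, 4378, 4934 and 712 genes. The comparison of the block with the same libraries without it, and all alternatives for junction genes that are no members, were added after seeing the data. A fit with batch as a covariate was not run, since the metadata used here name no batch. Depth limits Gja4, Cdh1, Cdh15 without hCG and Cdh11 in ruptured sides post-hCG.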
